A study of Mus musculus with 5 samples.

Results

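The genes described here encode laminin chains and the proteins that link laminin networks into basement membranes. There are 10 of them among 27729 genes in the deposited data, namely Lama2, Lama4 and Lama5 (laminin alpha chains), Lamb1 and Lamb2 (beta chains), Lamc1 (the gamma1 chain), Nid1 and Nid2 (nidogens), Hspg2 (perlecan) and Agrn (agrin). They were chosen by name, and their symbols were matched to the Ensembl identifiers of the data through GENCODE M21. All 10 passed the filter that kept 13346 genes, namely 10 expected counts in any of the libraries. The cells were mouse embryonic fibroblasts (MEFs) of the ICR strain, the connective tissue cells of mouse embryos, which were changed from serum medium to a defined medium that converts them into neuron-like cells. Total RNA was sequenced from the starting cells, called day 0, and from cells kept in the new medium for 2, 5, 10 and 14 days, with 1 library per time point and no other treatment, so every time point is compared with day 0 without a replicate check and no p-value is given. By the study's text the medium is DMEM/F12 with N2, the growth factor bFGF, the cytokine LIF, 2-mercaptoethanol and vitamin C. The labels call it 6C and the study's text 5C, and the 2 sources also differ in the number of cells plated and in whether the last time point was day 14 or 15. The study describes MEFs taken without head and internal organs, enriched for cells that attach strongly and normally plated on Matrigel, an extract of basement membrane proteins. The libraries hold RNA of whole cultures, in which fewer cells of a type and less RNA per cell cannot be told apart.

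A basement membrane is a thin sheet of matrix that lies under epithelia and around fat, muscle and Schwann cells. A laminin is a trimer of 1 alpha, 1 beta and 1 gamma chain. Its short arms join into a network, and the end of its alpha chain binds integrins and dystroglycan on the cell surface. Type IV collagen forms another network of the sheet. Nidogens bind the gamma1 chain of laminin and type IV collagen, and perlecan and agrin, which carry heparan sulfate chains, tie these networks to each other and to growth factors. Laminins of the alpha2, alpha4 and alpha5 chains are all made in peripheral nerve, and agrin is best known for gathering acetylcholine receptors at the neuromuscular junction.

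The expected counts of the libraries, which are RSEM's estimates of the reads from each gene, came to totals from 2253748 (day 2) to 3890334 (day 0). Normalized counts are expected counts scaled by library sizes that edgeR's TMM method corrects, and a change is the log2 ratio of normalized counts with a pseudocount of 1. A gene is said to rise or fall where it changed over 2-fold. The 95% intervals are exact Clopper-Pearson intervals of the ratio of the 2 counts. With 1 library per time point the intervals cover counting error only and not differences between cultures. They take each read as an independent count, although the reads carry no molecular identifiers. They also leave out the uncertainty of RSEM's assignment of reads, so they may be too narrow. The 10 genes together held 0.215, 0.188, 0.360, 0.972 and 0.641% of the counts from day 0 to day 14. The day 2 library was the shallowest, and 4.79% of its counts came from Gm42418, a gene that can collect ribosomal RNA reads. Library sizes computed without that gene and Lars2 left all 50 changes of the 10 genes on their side of the 2-fold threshold.

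On day 2, 6 of the 10 genes were below day 0, and all but Lamb2 and Agrn had their highest normalized count on day 10. In TPM, which divides by a length that RSEM estimated anew in each library, Hspg2 and Lama5 were highest on day 14 instead. On day 2 none rose over 2-fold and 4 fell, Lama2, Lamb2, Nid1 and Nid2, where 15.2% of all genes kept rose and 13.1% fell. On day 5 Lama4, Nid2 and Agrn rose and none fell, against 20.2% and 13.6% of all genes. On day 10 all but Lama5 and Lamb2 rose, 8 of 10, and none fell, against 28.7% and 22.3% of all genes. On day 14 Lama4, Nid1, Nid2, Hspg2 and Agrn rose, 5 of 10, and none fell, against 24.5% and 19.9%. The median change of the 10 genes against day 0 was −0.55, 0.59, 1.99 and 0.95 at the 4 later time points, where the median over all genes kept was −0.03, 0.05, 0.14 and 0.07. Apart from Lamb2, these genes stand in the study's lists of genes picked for a change in these same libraries, so their direction is not independent evidence.

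**Figure D1:**
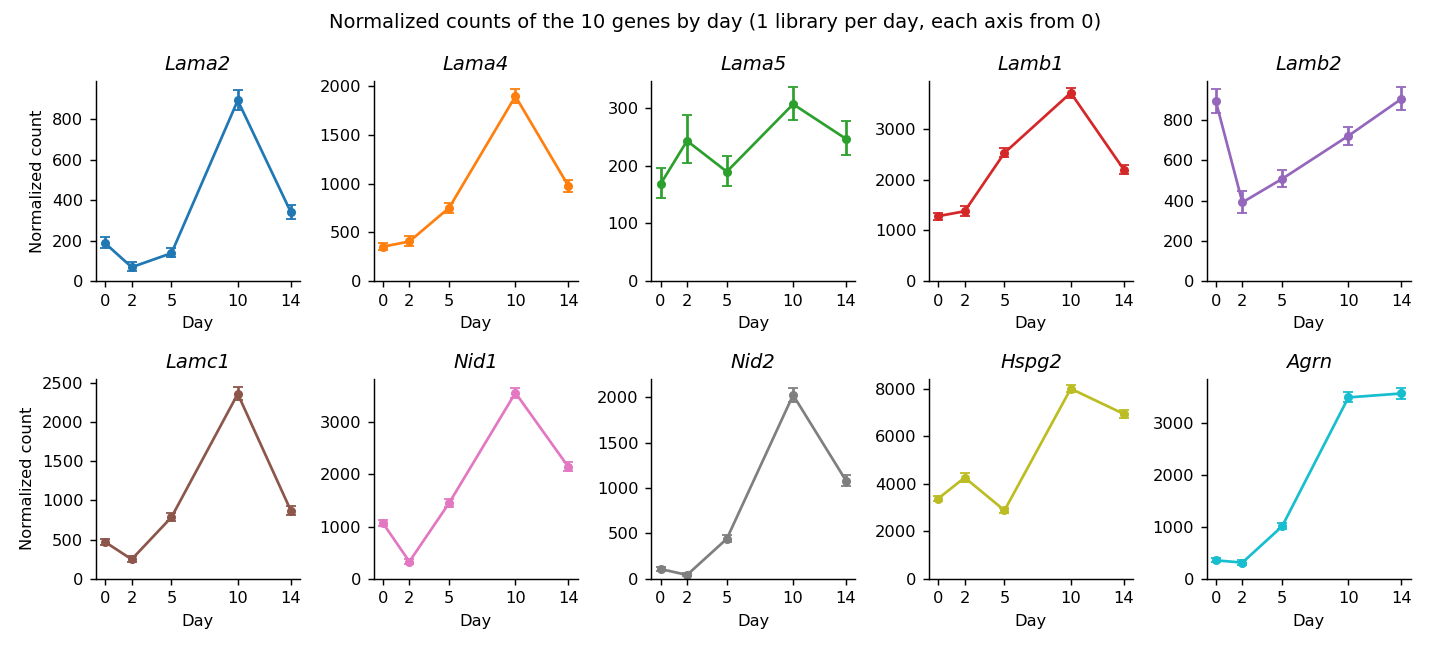
Normalized count of each of the 10 genes (vertical axes, from 0 and with a scale of their own) at each time point in days (horizontal axes). Each point is 1 library and its bars are the exact 95% interval of the count. Apart from Lamb2 and Agrn, the genes have their highest point on day 10.

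From step to step, 4 genes rose between days 2 and 5 (Lamc1, Nid1, Nid2 and Agrn), where 19.0% of all genes did. Between days 5 and 10, 7 of 10 rose, against 12.8% of all genes, and the 3 that did not were Lama5, Lamb1 and Lamb2. Between days 10 and 14 Lama2 and Lamc1 fell, 2 of 10, against 8.33% of all genes. The median change of that last step was −0.74 for the 10 genes and 0.02 for all genes kept. For genes kept that are at least as long as the shortest of the 10 it was −0.38. Between days 5 and 10 these medians were 1.40, −0.01 and 0.55 in the same order.

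These are long genes, and long genes as a group were higher on day 10. By the longest annotated transcript, 9 of the 10 lie in the longest of 5 equal groups of genes, and the shortest, Nid2, has 4876 bases. The median change of these groups on day 10 went from −1.05 for the shortest genes through −0.25, 0.15 and 0.48 to 0.94 for the longest. Among the 3079 genes of at least the length of Nid2, 47.4% rose over 2-fold on day 10 and the median change was 0.91. When each change was taken relative to the median of genes of like length, in 20 bins, 5 of the 10 genes remained over 2-fold above day 0 on day 10, against 23.5% of all genes. The 5 were Nid2 at 3.54, Agrn at 2.25, Lama4 at 1.56, Lamc1 at 1.32 and Lama2 at 1.21. On day 14, 2 of the 10 did, Nid2 and Agrn, against 22.2% of all genes on that scale. On day 10 Lamb2 was over 2-fold below day 0 on that scale, at −1.09. Lama5, at −0.18, and Hspg2, at 0.21, then lay close to genes of their length. Between days 10 and 14 Lama2, at −0.88, and Lamc1, at −0.96, did not pass the threshold on that scale. The part of length in the changes was not tested.

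**Figure D2:**
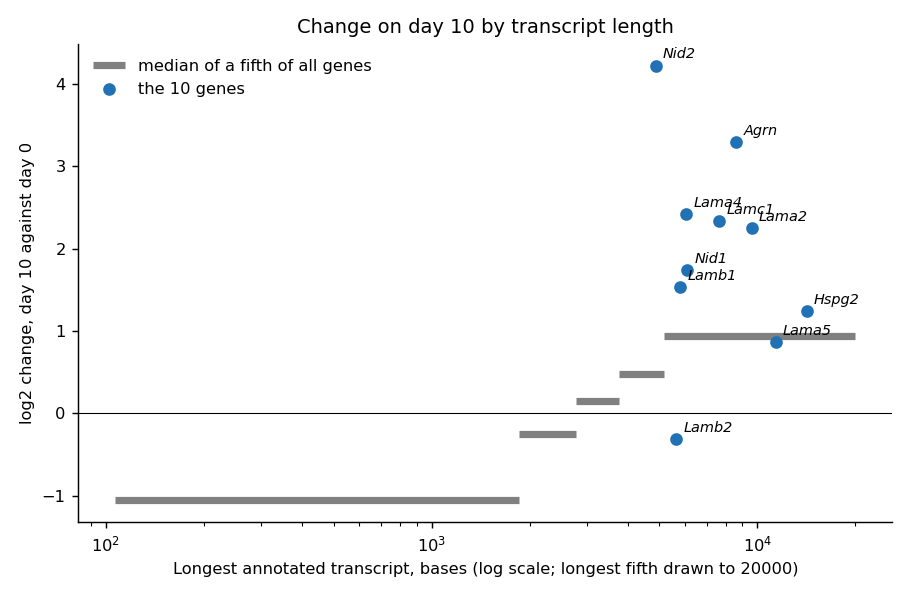
Log2 change on day 10 against day 0 (vertical axis) against the longest annotated transcript in bases (horizontal axis, log scale). Blue points are the 10 genes and grey bars the median change of 5 equal groups of genes by length, which goes from −1.05 to 0.94. Nid2 and Agrn stand farthest above the bar of their length and Lamb2 lies below it.

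Of the alpha chains, which decide the receptors a laminin binds, Lama2 and Lama4 rose on day 10 and Lama5 did not pass the threshold. Lama4 (ENSMUSG00000019846, chromosome 10, 38965515 to 39110188) encodes the alpha4 chain of vessels, fat and nerve. From day 0 to day 14, the 5 libraries gave normalized counts of 353, 407, 753, 1899 and 976. It was 5.36-fold above day 0 on day 10, or 2.42 on the log2 scale (2.27 to 2.59), and still 2.76-fold above it on day 14. Its log2 change on day 5, 1.09 (0.91 to 1.27), passed the threshold, but not with changes taken relative to genes of like length (0.76) or with TPM (0.84).

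Lama2 (ENSMUSG00000019899, chromosome 10, 26980036 to 27619758) encodes the alpha2 chain of muscle and Schwann cell basement membranes, whose loss causes a congenital muscular dystrophy. The normalized count was 187 in the starting MEFs, then 68.7, 138, 894 and 341 at the later time points in order. The low value of day 2 rests on 38 expected counts. Lama2 fell by 1.43 (interval −1.99 to −0.94) on the log2 scale on day 2 and was 4.76-fold above day 0 on day 10. Between days 5 and 10 it rose 6.43-fold, and between days 10 and 14 its log2 change was −1.39 (−1.56 to −1.22). The level of Lama2 on day 10 stood far above the other 4 libraries, which lay between 68.7 and 341.

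Lama5 (ENSMUSG00000015647, chromosome 2, 180176373 to 180225859) encodes the alpha5 chain of most epithelial and vascular basement membranes. Normalized counts of 168, 243, 189.9, 307 and 247 were found from day 0 to day 14. Its 5 libraries stayed closer together than those of the other alpha chains. The log2 change on day 10 was 0.86 (0.61 to 1.13), which passed the 2-fold threshold only with library sizes taken as total counts (1.33), among the scalings tried. Per kilobase of the longest coding transcript Lama5 was the lowest or among the lowest 3 of the 10 genes in every library, with normalized counts per kilobase between 14.8 and 27.0. Its TPM values in time order were 54.4, 84.7, 83.2, 54.9 and 94.4, so that the high value of day 10 was not found on that scale.

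Lamb1 and Lamb2, the alternative beta chains, moved apart. Lamb1 (ENSMUSG00000002900, chromosome 12, 31265234 to 31329644) encodes beta1, the common beta chain of embryonic laminins. In normalized counts it stood at 1282, 1379, 2530.5, 3715 and 2201 from day 0 to day 14. It was 2.90-fold above day 0 on day 10, a log2 change of 1.53 (1.45 to 1.62), and 1.72-fold above it on day 14. With total counts, TPM or quantile normalization, Lamb1 and Lamc1 also passed the threshold on days 5 and 14. Lamb2 (ENSMUSG00000052911, chromosome 9, 108479736 to 108490530) encodes beta2, the chain of the synapse and of the kidney filter. It started from a normalized count of 893 and was then at 391, 508, 721 and 905, so that the first and the last library were the highest. Lamb2 fell by 1.19 (interval −1.41 to −0.98) on the log2 scale on day 2 and came back to 0.02 (−0.11 to 0.15) on day 14. On day 10 its change was −0.31 with TMM and above 0, between 0.16 and 0.85, with total counts, quantile normalization and TPM, so its direction then depends on the scaling.

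Shares within a library do not depend on the scaling between libraries. Lamb2 made up 41.7% (95% interval 39.6 to 43.8) of the summed Lamb1 and Lamb2 levels on day 0, counted per kilobase of the longest coding transcript. The share was 22.6% (19.95 to 25.3) on day 2, then 17.1% (15.8 to 18.4) and 16.6% (15.7 to 17.6), and 29.7% (28.2 to 31.2) in the last library. The intervals of days 5 and 10 overlap each other and lie apart from those of the other days. On the TPM scale the shares were 41.7%, 22.5%, 17.1%, 15.8% and 29.7%.

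Lamc1 (ENSMUSG00000026478, chromosome 1, 153218922 to 153332786) encodes gamma1, the gamma chain of most laminins and the one that nidogens bind. Its 5 normalized counts in time order were 468, 248, 785, 2356 and 869.7. Against day 0 the log2 change was −0.91 (−1.20 to −0.64) at day 2. By day 10 it was 2.33 (2.19 to 2.47), and by day 14 it was 0.89 (0.73 to 1.06). Lamc1 was thus 5.02-fold above day 0 on day 10, and its log2 change between days 10 and 14 was −1.44 (−1.54 to −1.33). The interval overlaps that of Lama2 over the same step. Of the other chains of the family, Lama1, Lama3, Lamb3 and Lamc3 had at most 26 expected counts in any library.

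Levels of different chains could be compared only with care. The lengths that RSEM used for Lama2, Lama4, Lama5, Lamc1, Hspg2 and Agrn differed over 1.1-fold between libraries. For Lama2 the length was 8743 bases on day 0 and 7506 on day 2. For Lama4 this length was 1110 bases on day 0 and 3745 on day 10, and for Lamc1 2231 and 5193, as the estimated mix of short and long transcripts shifted. A TPM value divides by that length. Of the 10 genes 5 had a length over 1.1 times that of day 0 on day 10 and none a shorter one by that factor. Lamb2, Nid1 and Nid2 have 1 transcript each, so their length could not shift. Of the 7093 genes with several transcripts and at least 10 expected counts in every library, 22.9% were longer and 20.3% shorter. Lama4 was the main alpha chain on both scales, with 64.8% of the summed alpha chain TPM on day 0 and 74.9% on day 10, or 62.4% and 71.7% per kilobase of the longest coding transcript. Lama2 made up 24.98% (21.7 to 28.5) of the summed Lama2 and Lama4 levels per length on day 0. At the later time points its share was 9.60% (6.82 to 13.1), 10.4% (8.83 to 12.1), 22.8% (21.7 to 24.1) and 18.03% (16.3 to 19.8) in order. Its share was lower on days 2 and 5 than on the other days, and the intervals of days 0 and 10 overlap. Of all summed alpha chains, Lama2 made up 20.8% on day 0 and 21.2% on day 10 per kilobase of the longest coding transcript. In TPM these 2 days were far apart, with Lama2 at 4.24% and 14.2% of the summed alpha chains.

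**Figure D3:**
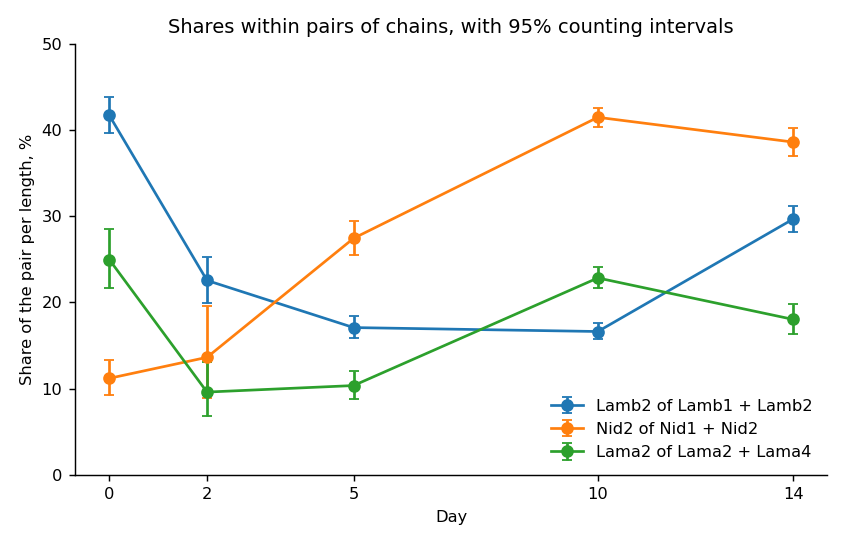
Share of 1 gene in the summed level of a pair (vertical axis, in %, counts per kilobase of the longest coding transcript) on each day (horizontal axis), with 1 library per day and exact 95% intervals. The Lamb2 share falls from 41.7% to 16.6% on day 10 and is 29.7% on day 14, while the Nid2 share goes from 11.2% to 41.5%.

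The nidogens, which join laminin to type IV collagen, fell on day 2 and rose on day 10, Nid2 by far the more. Nid1 (ENSMUSG00000005397, chromosome 13, 13437551 to 13512269) had normalized counts of 1069, 329.6, 1453, 3566 and 2142 in time order. It had the largest drop of the 10 genes on day 2, to a log2 change of −1.69 (−1.93 to −1.47), and was 3.33-fold above day 0 on day 10. On day 14 its change was 1.00 (0.90 to 1.11), at the threshold itself, and 0.98 with DESeq2's size factors.

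Nid2 (ENSMUSG00000021806, chromosome 14, 19751265 to 19811787) had 109, 23.3, 503, 2835 and 1207 expected counts in time order, which are normalized counts of 108, 42.2, 440.4, 2024 and 1079. Nid2 was 18.6-fold above day 0 on day 10, a log2 change of 4.22 (3.95 to 4.52), the largest of the 10 genes, and 9.93-fold above it on day 14. Each pair of neighbouring days differed beyond the counting intervals, and only day 2 lay below day 0. The exons of Nid2 overlap those of Rtraf, a gene on the opposite strand with up to 647 expected counts. Whether the counting used strand is not given in the sources used here, so reads of the overlap cannot be assigned to 1 gene with certainty. The share of Nid2 in the summed nidogen level per length was 11.2% (9.30 to 13.3) at the start and 13.6% (8.89 to 19.6) by day 2. It was then 27.4% (25.5 to 29.5), 41.5% (40.4 to 42.6) and 38.6% (37.0 to 40.3). The shares of days 0 and 2 cannot be told apart, and those of days 5, 10 and 14 lie above both. Whether the nidogens had gained on the gamma1 chain by day 10 depends on the length used. Their summed level per Lamc1 was 0.943 on day 0 and 2.21 on day 10 in TPM, but 3.22 and 3.24 per kilobase of the longest coding transcript. On day 14 it was above day 0 on both scales, at 2.32 in TPM and 5.02 per kilobase.

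Hspg2 (ENSMUSG00000028763, chromosome 4, 137468769 to 137570630) encodes perlecan, the main heparan sulfate proteoglycan of basement membranes. It had the most counts of the 10 genes in every library, with 3415, 2357, 3291, 11218 and 7772 expected counts in time order. Normalized, these are 3379.6, 4265, 2879.8, 8011 and 6947. Hspg2 was 2.37-fold above day 0 on day 10, a log2 change of 1.24 (1.19 to 1.30), and 2.06-fold above it on day 14, a change of 1.04 (0.98 to 1.098). Days 10 and 14 were high and the 3 earlier days low. Its share of the normalized counts of all 10 genes was 40.9% on day 0, 55.5% on day 2 and between 27.0% and 36.1% afterwards.

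The annotation gives Hspg2 a processed transcript of 820 bases besides coding transcripts of 14176 and 14187 bases. From the length RSEM reports for the gene, the short transcript was assigned 24.4, 3.90, 23.7, 7.75 and 19.4% of its reads in time order. The log2 change of the long transcripts against day 0 was then 0.68, −0.22, 1.53 and 1.13. The annotation used by the authors is not named and matched GENCODE M21 in length for 66.4% of genes with a single transcript, so these shares are approximate. In TPM, which uses the shifting length, Hspg2 had a log2 change of −1.54 on day 2, against 0.34 in normalized counts.

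Agrn (ENSMUSG00000041936, chromosome 4, 156165290 to 156197488) encodes agrin. Normalized counts were 354 for the starting MEFs and then 311, 1008, 3484 and 3560.1. The first 2 libraries did not differ beyond counting error, nor did the last 2, at a far higher level. Against day 0, Agrn was 2.84-fold higher by day 5, 9.81-fold by day 10 and 10.0-fold by day 14. The log2 change between days 10 and 14 was 0.03 (−0.03 to 0.09), in which Agrn and Lamb2, at 0.33 (0.20 to 0.45), were the 2 genes of the 10 with a value above 0. That of Agrn was below 0 with total counts (−0.08) and with quantile normalization (−0.19). Those of Lama5 and Hspg2, at −0.31 and −0.21, were above 0 with TPM (0.77 and 0.38) and relative to genes of like length (0.19 and 0.30). Per kilobase of the longest coding transcript the level of Agrn relative to Hspg2 was 0.205, 0.143, 0.684, 0.850 and 1.00 in time order. In TPM it was 0.138, 0.294, 0.371, 0.635 and 0.555, so the direction of the first and of the last step depends on the length used. In normalized counts per kilobase Hspg2 was the highest of the 10 genes on days 0 and 2, at 238 and 301. Lamb1 was the highest on days 5 and 10, at 437 and 642. Agrn, at 490.2, and Hspg2, at 489.7, could not be told apart on day 14 on that scale. In TPM the order was another one, with Hspg2 highest in all libraries but that of day 2, where Lama4 was, and on day 14 Hspg2 had 1316 and Agrn 730.3.

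**Figure D4:**
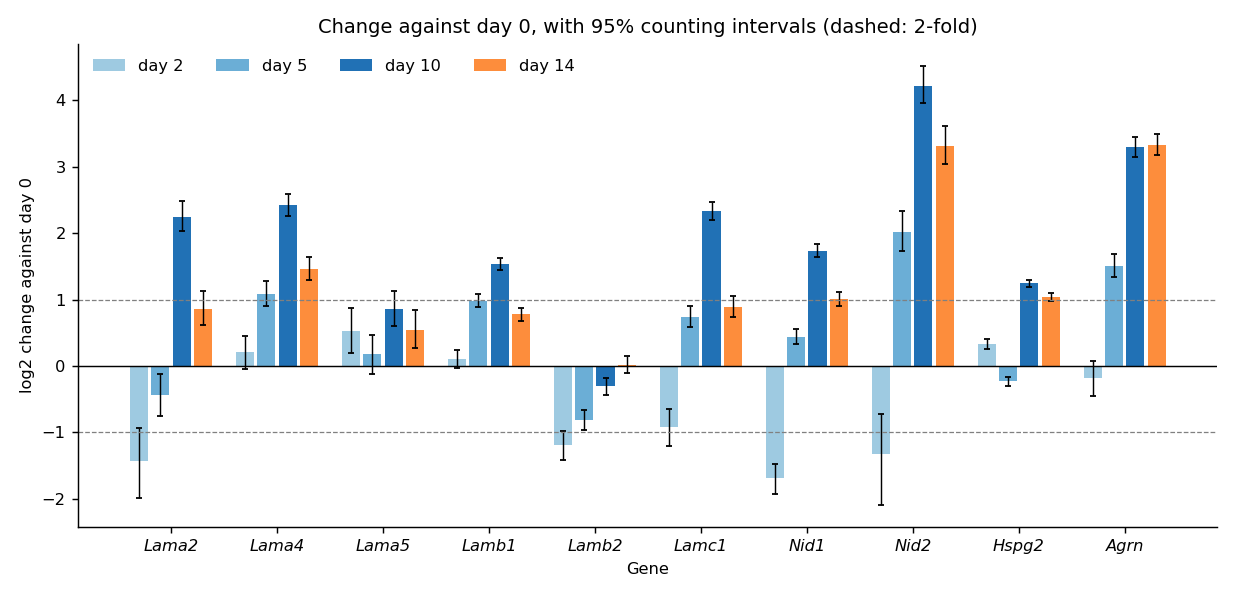
Log2 change of each gene against day 0 (vertical axis) on days 2, 5, 10 and 14 (bars in that order), with exact 95% counting intervals and 1 library per day. Dashed lines mark 2-fold. Nid2 has the highest bar, 4.22 on day 10, and Agrn and Lamb2 are the genes that are not lower on day 14 than on day 10.

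Promoter windows of 300 bases, from 250 bases before to 50 after a RefSeq start site (GRCm38.p6), were matched for 7 of the 10 genes, with 8 windows in all since Agrn has 2. They are shown for Agrn and Hspg2, the proteoglycans still high on day 14, and for Lamb2, which did not rise, a choice made with these values known. Letters in capitals mark GGGCGG on either strand, so CCGCCC as well, the GC box bound by Sp factors. Overlapping matches were counted.
Agrn, chr4:156197439-156197738, minus strand: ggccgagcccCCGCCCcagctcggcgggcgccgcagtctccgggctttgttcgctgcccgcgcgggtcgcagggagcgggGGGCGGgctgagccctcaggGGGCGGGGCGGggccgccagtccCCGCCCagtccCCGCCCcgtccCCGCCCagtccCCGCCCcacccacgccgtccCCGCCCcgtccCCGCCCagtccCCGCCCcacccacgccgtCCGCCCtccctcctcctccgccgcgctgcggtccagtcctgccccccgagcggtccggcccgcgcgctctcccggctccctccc
Hspg2, chr4:137468553-137468852, plus strand: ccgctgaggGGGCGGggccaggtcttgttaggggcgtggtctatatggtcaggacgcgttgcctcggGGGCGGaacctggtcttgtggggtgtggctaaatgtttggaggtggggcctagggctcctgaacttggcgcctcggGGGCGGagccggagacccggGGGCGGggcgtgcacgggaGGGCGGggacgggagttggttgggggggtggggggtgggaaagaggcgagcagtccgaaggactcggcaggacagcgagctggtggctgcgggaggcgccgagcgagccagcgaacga
Lamb2, chr9:108479612-108479911, plus strand: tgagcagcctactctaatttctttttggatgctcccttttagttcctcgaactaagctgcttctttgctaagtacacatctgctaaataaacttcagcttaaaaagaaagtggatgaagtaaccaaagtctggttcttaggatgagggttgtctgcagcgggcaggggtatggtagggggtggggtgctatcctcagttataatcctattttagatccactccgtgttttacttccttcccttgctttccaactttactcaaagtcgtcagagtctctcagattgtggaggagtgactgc
The Agrn window holds 12 matches, the Hspg2 window 5 and the Lamb2 window 0. The other windows did not follow the changes, with 4 matches for Lama5, which did not rise, 2 for Lamb1 and for the second Agrn window, and 1 each for Lama2 and Nid1, which rose. Of the 8 windows 7 hold the letters GGGCGG, and of all 32851 windows 35.7% do. TATAAA was found in 0 of the 8 windows and in 13.6% of all, and TGACTCA, the AP-1 letters, in 0 of 8 and in 5.20% of all. The window of Lamb2 has 44% G and C and that of Agrn 83.3%. These matches describe the letters of the windows and say nothing of binding.

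Of 8246 other genes that reached 100 expected counts in any library, those whose changes on days 2, 5, 10 and 14 were closest to those of Lamc1 were Trpm7, Nup98, Pdpk1, Nedd4 and Klf3. The largest difference over the 4 days was 0.30 on the log2 scale for Trpm7 and 0.41 for Klf3. The closest to Agrn were Bhlhe22, Notch1, Hunk, Col5a3 and Ifit2, with largest differences between 0.40 and 0.52. With 4 values from single libraries this likeness is a description.

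The other collagens, receptors and enzymes of basement membranes were followed in fixed lists. Of 6 basement membrane collagens kept, 2 rose on day 10 and none fell, with a median change of 0.86. The 2 were Col18a1, the source of endostatin, at 4.11, and Col15a1 at 5.59. Col4a1, the main chain of type IV collagen to which nidogens bind, was at −1.11 on day 2, 0.92 on day 10 and 0.39 on day 14, and thus fell on day 2 and passed the threshold on no later day.

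Of 14 laminin and agrin receptors kept, 8 rose and 1 fell on day 10, with a median of 1.57. Dag1, dystroglycan, which binds the alpha chains of laminins as well as agrin and perlecan, had 32, 10, 313, 2406 and 1521 expected counts in time order, with a change of 5.72 on the log2 scale by day 10. Lrp4, the agrin receptor of muscle, changed by 3.66 and Itgb4, the beta4 integrin of hemidesmosomes and Schwann cells, by 4.57. Chosen after their values were seen, the laminin receptor chains Itga6 and Itga7 changed by 2.28 and 3.45 on day 10. Itga3, another laminin receptor chain, was the gene that fell, at −1.10, and Itgb1, the partner of all 3, was at −0.41. Musk, which works with Lrp4 in muscle, had 1 count in the 5 libraries together.

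Of the 17 genes of heparan sulfate synthesis and editing 7 rose and 1 fell on day 10, with a median of 0.63. Ndst1, which begins the sulfation of the chains carried by perlecan and agrin, changed by 3.80, the sulfotransferase Hs6st1 by 1.80 and heparanase, Hpse, by 2.22. Of 14 other basement membrane proteins kept, 5 rose and 3 fell, with a median of 0.25. Among those that reached 100 expected counts, Frem1 went from 0 counts on day 0 to 121 on day 10, Egflam, which binds dystroglycan, changed by 4.39 and Fbln1 by 2.49. These shares stand beside 28.7% of all genes risen and 22.3% fallen on day 10. Among the 3079 genes at least as long as Nid2, 47.4% rose. The changes of the listed genes are not given relative to genes of like length, so the part of length in them was not tested.

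**Figure D5:**
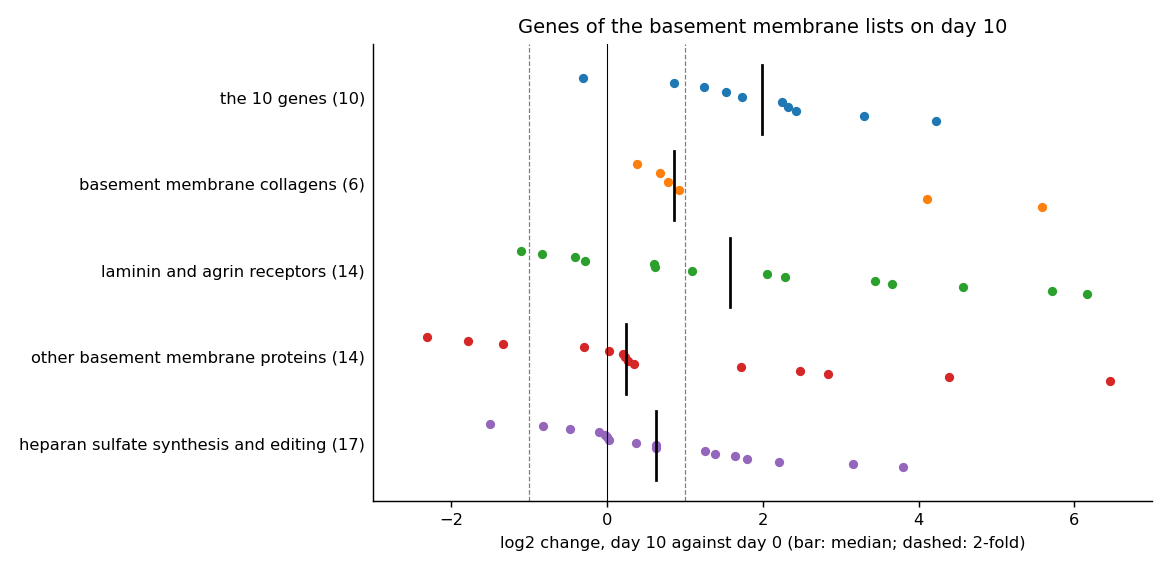
Log2 change on day 10 against day 0 (horizontal axis) of the genes kept in each list, 1 point per gene, with list sizes in parentheses, black bars at the medians and dashed lines at 2-fold. The median of the 10 genes is 1.99, and the receptors, at 1.57, come closest to it. Itga2 and Frem1 had 0 counts on day 0, so their points depend on the pseudocount.

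Markers of cell types moved over the same days, and their part in the changes of the 10 genes was not tested. Of all genes kept, 28.7% rose and 22.3% fell on day 10, and 24.5% rose on day 14. All 8 Schwann cell markers rose on days 10 and 14, and their summed normalized count was 107, 192, 1219, 7866 and 11023 in time order. All 7 macrophage markers rose on day 5, against 20.2% of all genes, with sums of 199.7, 3374 and 1799 for days 0, 5 and 10. Most of the day 5 sum was Lyz2, at 2738. The fibroblast markers summed to 24745 on day 0, 17675 on day 2 and 50442 on day 14, with 4 of 8 risen and 1 fallen on day 10. On day 0 all 8 fibroblast markers were detected, from 24 expected counts of Lum to 14109 of Col1a1. Of the 8 astroglial markers 6 rose on day 10, and Gfap had 0 counts on day 0. The sums of all 8 lay between 617 and 1502. Gja1, which did not rise on day 10 (−0.13), was the largest part of the sum in every library. Of 6 mural cell markers kept, 5 fell on day 10 and 1, Notch3, rose, at 2.04. The sum over the whole mural list went from 34322 on day 0 to 1352 on day 10. Acta2 made up most of the former. Of the 8 skeletal muscle markers 3 passed the filter, and all 3 fell on day 10. The sum over all 8 fell from 1191 to 63.0, and most of the former was Acta1 and Des. Myf5 was at 0 throughout and Myod1 at 1 count or less. Of the 8 endothelial markers 5 did not pass the filter on low counts and Cldn5 was at 0 in all 5 libraries. The sum fell from 582 to 67.1 on day 10, nearly all of it Kdr and Flt1. Of the 8 epithelial markers 3 passed the filter. The sum over all 8 was 389 on day 0, 474 on day 2 and 32.1 on day 10, and most of the first was Krt19. Epcam went from 0 counts on day 0 to 8 on day 14, and Ocln was at 0 in every library.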

How the data were processed

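Per the labels, 1 library per time point was made with the Illumina TruSeq RNA kit from Trizol-extracted total RNA, and the submitters' processing notes name Bowtie, RSEM and the build mm10, with no versions. The gene annotation, any filter and the strand setting are not given in the sources used here. The authors deposited for each gene expected counts, which are RSEM's estimates of reads and are not scaled for library size, TPM values, which are divided by gene length and sum to 1000000, and FPKM values, which were used for no result. The effective length equals the length in the deposited values.

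Expected counts, rounded for the library sizes, were scaled to the geometric mean library size after TMM correction (edgeR 4.0.16, run under R 4.3.3). The TMM factors were 0.856, 0.808, 1.11, 1.19 and 1.096 from day 0 to day 14. A count of 3 amounted to 1.33 per 1000000 in the day 2 library and 0.771 to 0.892 elsewhere, a limit that covers counting error only. Identifiers were matched to GENCODE M21 (GRCm38), with symbols for 27247 of 27729 genes. Genes that reached 10 expected counts in any library were kept, changes over 2-fold were called, and no test between time points was possible. Longest annotated transcripts were used for gene length, since the deposited length of day 0 is a weighted mean that can be far shorter. Protein features were not analysed here, and some genes of the lists are not reported here.

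The 10 genes, the lists and the rules were chosen with earlier results of these data known. Named genes are the 10, the 3 of each list with the largest change on day 10 and at least 100 expected counts in any library, and the 5 genes most like Lamc1 and Agrn. Alternatives were DESeq2 1.42.0 size factors, total counts, library sizes without Gm42418 and Lars2, TPM, quantile normalization, changes centred on 20 length bins, a pseudocount of 5, other filters and a 4-fold threshold. The longest coding transcript as length, Hspg2 without its short transcript and library sizes without the day 2 library were chosen after seeing the data. The scripts, in Python 3.11.15 (pandas 2.3.3, numpy 2.4.6, matplotlib 3.10.9, scipy 1.17.1), were tested on simulated data.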

Additional observations from a re-analysis of the deposited data

How the results depend on the processing

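With 1 library per time point no library could be left out of a comparison as a replicate, and no paired analysis was possible because each group has 1 sample. No change of over 2-fold reversed under any alternative tried. With DESeq2's size factors, with library sizes without Gm42418 and Lars2, and with a pseudocount of 5, the counts and medians of the 10 genes stayed close to those reported, and so did library sizes without the day 2 library, which gave 8 genes risen on day 10 and 5 on day 14. Total counts and TPM, which move the median of all genes on day 10 from 0.14 to 0.60 and 1.09, gave 5 risen genes each on day 5 in place of 3 and 8 each on day 14 in place of 5, and quantile normalization gave 5 on day 5. Between days 10 and 14 they gave 4, 5 and 6 fallen genes in place of 2. The median change was 0.97, 0.94 and 0.98 with total counts, TPM and quantile normalization on day 5, 2.47, 2.52 and 2.54 on day 10 and 1.30, 1.59 and 1.37 on day 14. Between days 10 and 14 it was −0.86 with total counts and −1.11 with quantile normalization, and on day 2 it was −1.26 with TPM. On day 2 TPM gave 6 fallen genes in place of 4, with Lamc1 at −1.42 and Hspg2 at −1.54 added. Quantile normalization gave 7 risen genes on day 14 in place of 5. Centred on the length bins, 1 gene fell on day 5 and 5 rose and 1 fell on day 10, with medians of 0.27 and 1.04. Centred in the same way, 2 rose on day 14 and 0 fell between days 10 and 14, with medians of 0.43 and −0.40. At 4-fold, 0 genes fell on day 2, 1 rose on day 5, 5 on day 10 and 2 on day 14, and 0 fell between days 10 and 14, since a stricter threshold keeps fewer. Nidogens per Lamc1 were 2.51 on day 0 and 2.37 on day 10 without division by length, 3.22 and 3.24 with the longest coding transcript and 0.951 on day 10 with the length of day 0. The Lama4 share of alpha chains was 49.2% on day 0 and 60.5% on day 10 without division by length, 81.7% on day 10 with the length of day 0 and 71.7% with the longest coding transcript. Depth limits Nid2 and Lama2 on day 2, which rest on 23.3 and 38 expected counts.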
